A study of Zea mays with 18 samples.

Results

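Under heat, 32 of the 39471 genes counted in the third leaf of the maize hybrid An'nong 591 were highly expressed although they were low in the control. They were chosen by their level: a mean of at least 300 FPKM in the heat-treated hybrid (F1), a mean under 30 FPKM in the control hybrid (CF1) and more than 3 counts in at least 1 CF1 library. FPKM is the number of fragments per kilobase of exon scaled to the library total. Of the 166 genes that reached the heat threshold, 133 were at or above the control threshold and 1 had no CF1 library above 3 counts. F1 seedlings were kept at 42/35 °C (day/night) for 2 d and CF1 seedlings at 28/23 °C, both under 16 h light and 8 h dark. Each group had 3 libraries, described in the study as biological replicates, and where a gene has 3 values per group they are those of replicates 1, 2 and 3. An'nong 591 is the F1 offspring of a cross between inbred lines, so all 6 libraries share 1 genotype. The parental lines were not analysed here.

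Heat unfolds proteins, and plant cells answer by making heat shock proteins (HSPs). Heat shock transcription factors (HSFs) bind short elements in the promoters of HSP genes. Small HSPs hold unfolding proteins so that they do not aggregate, HSP101 pulls aggregates apart, and HSP70, HSP90 and the barrel-shaped chaperonins help proteins to fold. In a leaf, photosynthesis is among the most heat-sensitive processes, and Rubisco activase, which keeps the carbon-fixing enzyme Rubisco active, is itself heat-labile.

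The levels chose the 32 genes, so their levels and fold changes are described without a test. Every member was higher in each F1 library than in any CF1 library, which also held for 64.3% of the 20622 expressed genes (mean of at least 1 FPKM in F1 or CF1). By edgeR's quasi-likelihood test all 32 were called higher in F1, against 24.1% of the expressed genes. Nothing is read from these counts, since the selection fixed them. The closest approach of the groups was in plt2, whose lowest F1 value was 10.3 times its highest CF1 value, and the widest gap was 6222 times, in GRMZM2G154685. Fitted log2 fold changes (F1 over CF1, after TMM scaling) lay between 2.78 and 12.14 with a median of 5.46, beside a median of 0.05 over all expressed genes.

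The size of each difference depended on the scale. When libraries were scaled by their totals alone, the median log2 fold change was 6.26 for the members and 0.85 for all expressed genes. Of the genes called with TMM factors 54.7% were higher in F1, and with library totals 83.0%. Deposited FPKM follow the library totals. When the same thresholds were put on TMM-scaled FPKM, 15 of the 32 genes met them. On that scale the groups also stayed apart for every member, and for 39.1% of the expressed genes. The 15 were hsp26, hsp 17.2, hsp22, hsp18f, hsp82, CPN60I, dhn1, AGA1 and 7 genes without a gene name, GRMZM2G366532, GRMZM2G154685, GRMZM2G437100, GRMZM2G042789, GRMZM2G080724, GRMZM2G375517 and GRMZM2G020940.

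**Figure D1:**
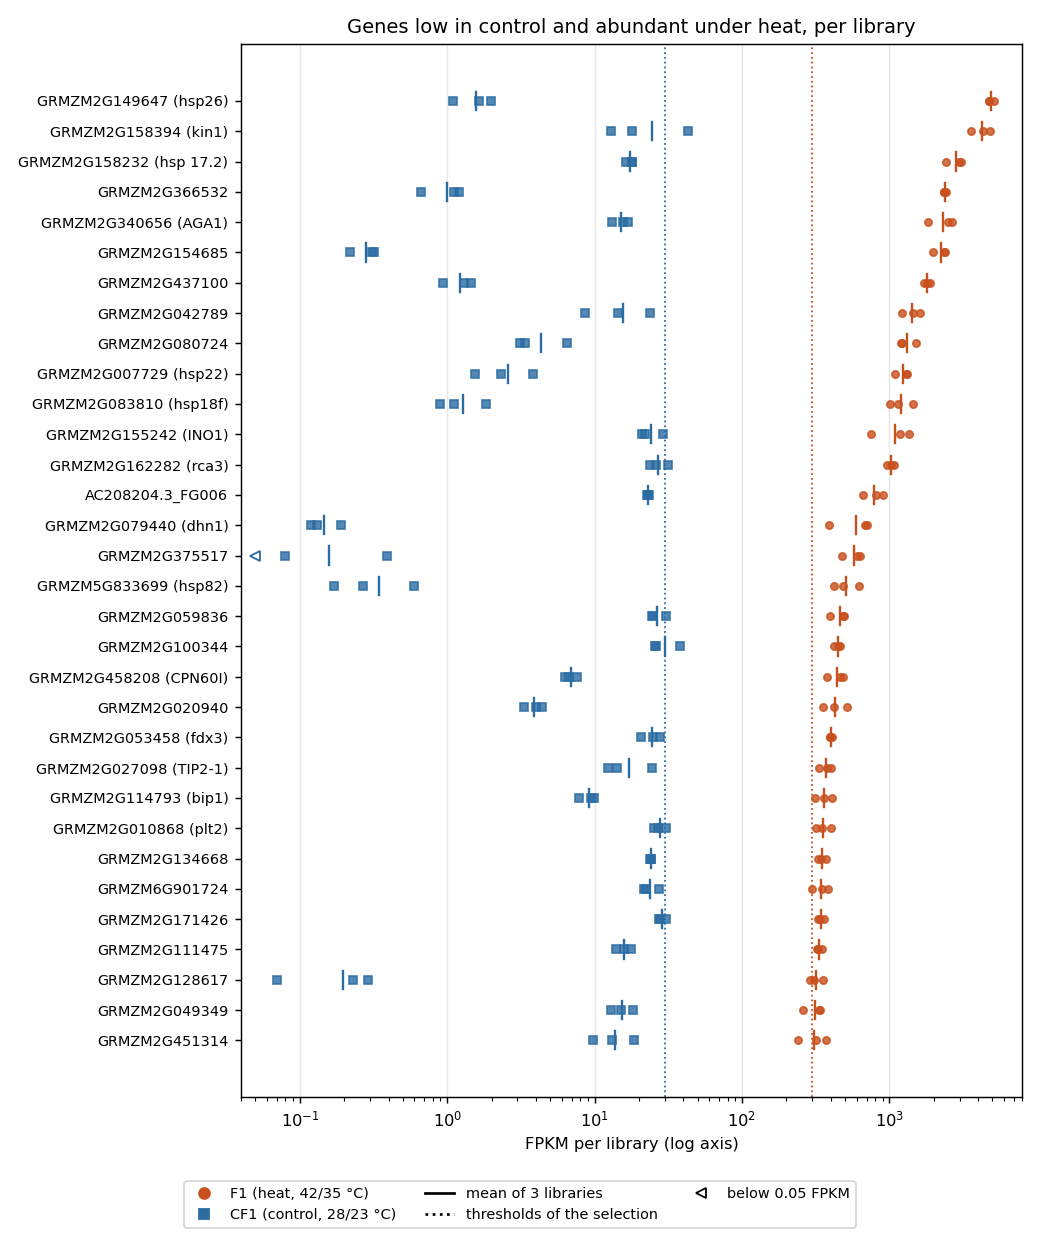
FPKM of the 32 genes in each library on a log axis, ordered by mean level in F1. Circles are the 3 F1 libraries, squares the 3 CF1 libraries, short bars the group means and dotted lines the thresholds of 300 and 30 FPKM. The F1 points of every gene lie right of its CF1 points by at least 10.3 times, and the CF1 means spread from 0.147 to 29.9 FPKM.

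The 32 genes took a large share of the heat libraries. They held 5.61%, 5.70% and 5.87% of the counts on genes in the F1 libraries, against 0.0647%, 0.0657% and 0.0772% in the CF1 libraries. The selection by level set the groups far apart, so nothing is read from that distance. The libraries of a group lay close together (5.72% ± 0.131 in F1 and 0.0692% ± 0.00693 in CF1, SD, n = 3 each). Per length, as a share of the summed FPKM, they held 6.85% ± 0.191 in F1 and 0.0762% ± 0.00865 in CF1 (SD, n = 3 each). The 5 genes with the highest FPKM alone held 2.83% of the F1 counts, against 0.0103% of the CF1 counts. Of the 10 genes with the highest mean FPKM in F1, 6 were members, and of the highest 100 there were 21. In CF1 no member was among the highest 100, and the best-placed one ranked 2363, which follows from the control threshold. In bulk leaf RNA, a lower level from fewer cells of a type cannot be told apart from less RNA per cell.

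Leaf marker genes were present in every library but lower in F1. The marker list held pep1 and ppdk1, which fix and prime carbon in C4 mesophyll cells, and me3, ssu1 and rbcS of the bundle sheath. All 5 fell by edgeR's quasi-likelihood test (me3 not with library totals, log2 fold change -0.99), as did 19.9% of the expressed genes, and they held 2.16%, 1.88% and 2.29% of the counts in F1, against 7.08%, 6.81% and 7.27% in CF1. Of 6 root and anther markers, only rth3 and ms32 were expressed, and their list summed to 33.1 to 36.2 FPKM in F1 and 10.5 to 14.2 FPKM in CF1. rth3 was called higher in F1 (log2 fold change 1.16, means of 25.4 FPKM in F1 and 6.49 FPKM in CF1), a call lost without CF1-2, and ms32 was not called. The root marker rtcs and the anther marker ms23 had 0 counts in every CF1 library. The anther marker ms26 had 24, 30 and 13 counts in CF1, against 0, 1 and 0 in F1. How far these markers' changes bear on the members was not tested.

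**Figure D2:**
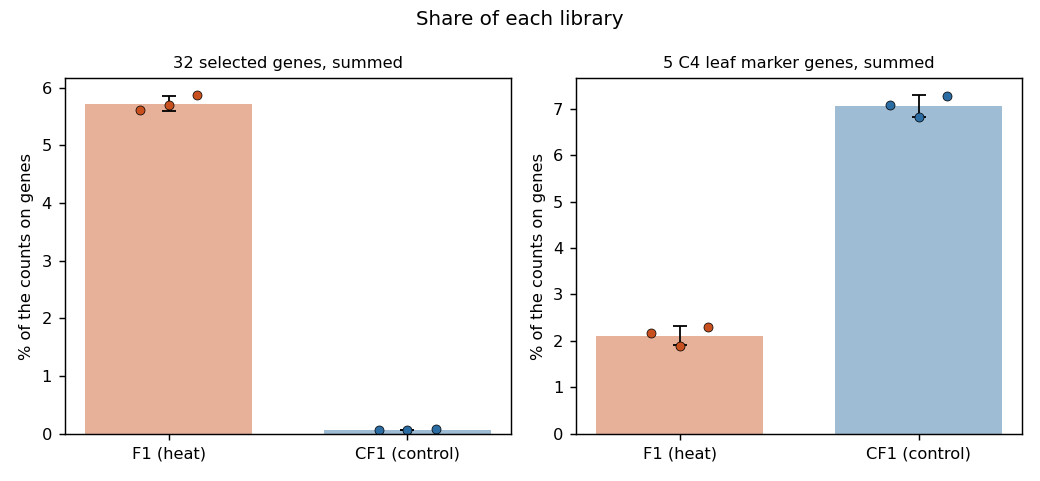
Share of the counts on genes held by the 32 genes (left) and by 5 marker genes of the C4 leaf (right), as % of each library. Bars are means, error bars the SD of 3 libraries and points the libraries; the 32 genes hold 5.72% in F1 and 0.0692% in CF1, and the leaf markers 2.11% in F1 and 7.05% in CF1.

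Small HSPs were the largest and most abundant named group among the 32 genes. With hsp82, bip1 and CPN60I they made 7 listed heat shock members, which held 1.37% of the counts in F1, against 0.00531% in CF1. The lists hold only genes named in RefSeq, and the 17 members without a gene name were not assigned to a family. The quantitative RT-PCR assay of the study covered 1 member, hsp 17.2. Its primers are shown because they mark the transcript that was measured a second way, in lower case with the last 5 bases at the 3′ end, where the polymerase extends, in capitals.
hsp 17.2 forward: gaggacaaggacgacAAGTG
hsp 17.2 reverse: ccttgacctgatccaCCTTG
Both are 20 bases long with a GC content of 55.0%.

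hsp26 (GRMZM2G149647), the small HSP of the chloroplast, had 5150.4, 4739 and 4769.5 FPKM in F1, against 1.65, 1.09 and 1.99 FPKM in CF1. It had the highest mean FPKM of all genes in F1, and its 3 F1 libraries differed little. hsp 17.2 (GRMZM2G158232), a small HSP, had 3074, 2418 and 2990.3 FPKM in F1, against 17.9, 16.2 and 18.0 FPKM in CF1. Its CF1 level was the highest among the small HSPs and nearly even across the 3 control libraries. hsp22 (GRMZM2G007729), the small HSP of mitochondria, had 1092, 1317 and 1295 FPKM in F1, against 1.55, 2.32 and 3.85 FPKM in CF1. In CF1 its values spread over 2.48 times between the lowest and the highest library, with CF1-3 at the top. hsp18f (GRMZM2G083810), another small HSP, had 1018, 1137 and 1449.5 FPKM in F1, against 1.12, 0.890 and 1.84 FPKM in CF1. Both groups were highest in replicate 3, and they did not come near each other. The fitted log2 fold changes were 10.80 for hsp26, 9.08 for hsp18f, 8.12 for hsp22 and 6.55 for hsp 17.2.

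The other small HSPs named in RefSeq, hsp18c and hsp18a, rose as well but stayed under the heat threshold. hsp18c had 121, 147 and 139.6 FPKM in F1, against 0, 0 and 0.190 FPKM in CF1, where the CF1 value came from 2 counts in 1 library. hsp18a had 41.8, 54.2 and 49.6 FPKM in F1, against 0.170, 0.0900 and 0.770 FPKM in CF1, a log2 fold change of 6.37 ± 0.36 (SE, edgeR's quasi-likelihood test, Benjamini-Hochberg adjusted p = 2.19e-07). Its control counts were 2, 1 and 8, and without CF1-3 the log2 fold change was 7.69. Of 6 listed small HSP genes 4 were thus members, and both others were called higher in F1, as were 24.1% of all expressed genes.

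Only 1 of the 3 listed HSP90 genes was a member. hsp82 (GRMZM5G833699), a heat-inducible HSP90, had 421, 485 and 618 FPKM in F1, against 0.170, 0.270 and 0.6 FPKM in CF1. It was under 1 FPKM in every control library, with CF1-3 the highest, and abundant in every heat library. Its fitted log2 fold change was 9.74, and 10.40 without CF1-3, which held 21 of its control counts against 7 in CF1-1 and 10 in CF1-2. HSP90-1 (GRMZM2G024668) had 134, 137 and 174 FPKM in F1, against 113, 123 and 122 FPKM in CF1, and HSP90-2 (GRMZM2G012631) had 139.6, 155 and 173 FPKM in F1, against 77.6, 77.2 and 74.4 FPKM in CF1. Unlike hsp82, both were well above 1 FPKM in every control library. The log2 fold change of HSP90-1 was -0.49 ± 0.14 (SE), and 0.31 with library totals, under 2-fold and so not called with either. That of HSP90-2 was 0.23 ± 0.12 (SE), not called, but with library totals it was 1.03 and called.

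Among the listed HSP70 genes the member was bip1. bip1 (GRMZM2G114793), the HSP70 of the endoplasmic reticulum, had 360.0, 311 and 406 FPKM in F1, against 9.97, 7.85 and 9.53 FPKM in CF1. F1-2 was the lowest heat library and CF1-2 the lowest control library, with no overlap. Its paralog bip2 (GRMZM2G415007) had 68.9, 69.7 and 75.8 FPKM in F1, against 4.56, 5.26 and 3.94 FPKM in CF1 and rose by 3.16 ± 0.13 on the log2 scale (SE, edgeR, Benjamini-Hochberg adjusted p = 3.46e-08), with a lower level than bip1 in both groups. The fitted value of bip1 was 4.50. hsp70-5 and Hsp70 rose by 3.06 and 4.95 on that scale, to mean levels of 153.8 and 120.9 FPKM in F1. hsp70-4 (GRMZM2G340251) was the exception, with 187, 140.1 and 161 FPKM in F1, against 142, 176 and 148 FPKM in CF1. Its log2 fold change was -0.73 ± 0.14 (SE) and 0.07 with library totals, under the threshold in both.

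CPN60I is the mitochondrial chaperonin, and the table held it as a pair of gene models. GRMZM2G458208 (CPN60I) had 375, 463 and 488 FPKM in F1, against 6.75, 6.29 and 7.61 FPKM in CF1. GRMZM2G111477, which RefSeq places in the same gene, had 205, 262 and 273 FPKM in F1, against 3.59, 3.80 and 4.49 FPKM in CF1. The models moved alike, with log2 fold changes of 5.21 and 5.16, and how reads were divided between them is not known, so the level of either is uncertain. CPN60II, with means of 109 FPKM in F1 and 4.98 FPKM in CF1, rose by 3.65 on the log2 scale by edgeR's quasi-likelihood test (adjusted p = 3.88e-08). The chloroplast co-chaperonin CHL-CPN10, with means of 48.6 FPKM in F1 and 6.71 FPKM in CF1, rose by 2.06 (edgeR, adjusted p = 1.34e-06). hsp101 (GRMZM2G360681), the disaggregase, missed the heat threshold with 241, 265 and 295 FPKM in F1, against 1.22, 0.980 and 1.52 FPKM in CF1. It rose by 6.96 ± 0.20 on the log2 scale (SE, edgeR, adjusted p = 1.40e-08). Fes1B, a co-chaperone of HSP70, rose as well, with means of 14.4 FPKM in F1 and 0.0700 FPKM in CF1 (edgeR, adjusted p = 2.90e-07).

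No listed HSF gene reached the heat threshold of the members. The highest of the 10 expressed HSF genes in F1 was Hsf01, with 85.9, 98.1 and 100.5 FPKM in F1, against 109, 98.3 and 128 FPKM in CF1. By edgeR's quasi-likelihood test 3 rose (Hsf03, Hsf26 and Hsf23), 2 fell (Hsf01 and Hsf17) and 5 were not called, against 24.1% and 19.9% of all expressed genes called higher and lower. Among those not called, Hsf05, HSF6 and HSF29 passed the FDR but changed less than 2-fold (log2 fold changes -0.77, 0.74 and -0.31). Hsf03 averaged 5.25 FPKM in F1 and 0.330 FPKM in CF1. Hsf26 averaged 5.94 FPKM in F1 and 0.123 FPKM in CF1, and Hsf23 2.77 FPKM in F1 and 0.0167 FPKM in CF1, so these 3 were low in both groups. The calls of Hsf01 and Hsf17 were lost with library totals, where HSF6 was called higher, and that of Hsf01 also without CF1-3 (log2 fold change -0.90) or F1-1 (-0.97). Over all heat shock lists together, 29 of 30 genes were expressed, of which 7 were members. Of the 22 others 12 rose, 2 fell and 8 were not called, with a median log2 fold change of 2.56, also with genes of at most 3 counts in every CF1 library set at their lower bound (all expressed genes 0.05). The lists were drawn up with earlier results of these data known.

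**Figure D3:**
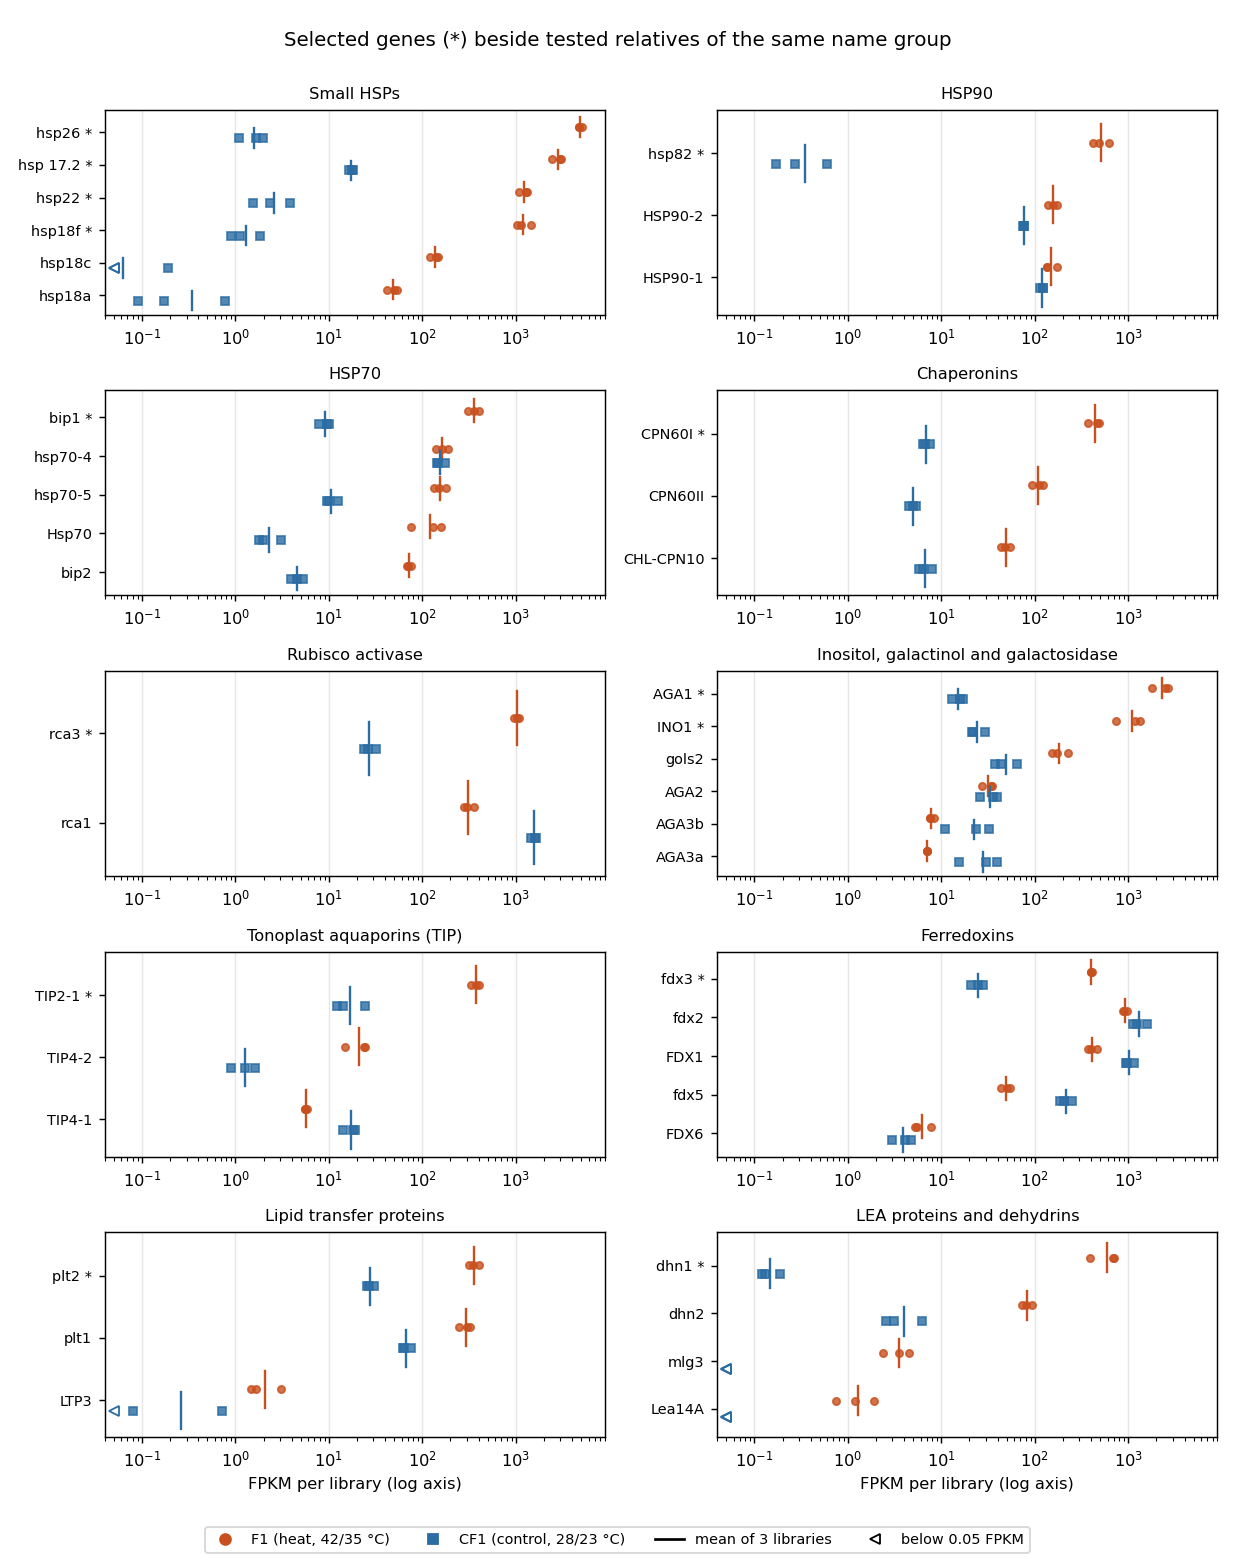
FPKM per library on log axes for the named members (asterisks) and for expressed genes of the same name group, with F1 as circles above CF1 as squares and bars at the group means. In the Rubisco activase panel the order of F1 and CF1 is opposite for rca3 and rca1, and in the HSP90 panel only hsp82 is under 1 FPKM in CF1.

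The Rubisco activase genes differed in opposite directions. rca3 (GRMZM2G162282) had 963, 1024 and 1075 FPKM in F1, against 23.8, 31.6 and 26.0 FPKM in CF1. The groups did not overlap, and of the control libraries only CF1-2 was above 30 FPKM. The fitted log2 fold change was 4.43. rca1 (GRMZM2G162200) had 353, 276 and 302 FPKM in F1, against 1470.5, 1652 and 1624 FPKM in CF1. It fell by 3.15 on the log2 scale by edgeR's quasi-likelihood test (Benjamini-Hochberg adjusted p = 1.22e-07) with a log2 fold change of -2.35 under library totals. The gene with more FPKM was therefore rca3 in every F1 library and rca1 in every CF1 library. The genes are next to each other in the order of RefSeq genes. Whether reads were shared between them was not examined.

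Members of sugar metabolism were AGA1 and INO1. AGA1 (GRMZM2G340656), an alkaline alpha-galactosidase that takes galactose off raffinose-type sugars, had 1816, 2660.0 and 2492 FPKM in F1, against 15.7, 16.9 and 13.1 FPKM in CF1. F1-1 was the lowest heat library, still 107.6 times the highest CF1 value. Its fitted log2 fold change was 6.46. AGA2 had 34.8, 34.0 and 27.0 FPKM in F1, against 35.4, 39.0 and 26.1 FPKM in CF1, and its log2 fold change of -0.87 ± 0.15 (SE) did not reach the threshold. AGA3a fell, with means of 7.00 FPKM in F1 and 28.2 FPKM in CF1 and a log2 fold change of -2.80 (edgeR, adjusted p = 7.70e-06). AGA3b fell likewise, with means of 7.77 FPKM in F1 and 22.3 FPKM in CF1 and a log2 fold change of -2.31 (edgeR, adjusted p = 7.52e-05).

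INO1 (GRMZM2G155242), which makes inositol phosphate from glucose phosphate, had 1349, 1172 and 746 FPKM in F1, against 21.9, 21.1 and 29.2 FPKM in CF1. F1-3 was well under the other heat libraries and CF1-3 above the other control libraries, and the groups were 25.5 times apart at their nearest. The fitted log2 fold change was 4.69. gols2, a galactinol synthase that uses inositol for the raffinose pathway, had 225, 173 and 151 FPKM in F1, against 43.7, 37.7 and 64.7 FPKM in CF1. It rose by 1.10 ± 0.22 on the log2 scale (SE, edgeR, adjusted p = 0.0012), but the fold change was under 2 without CF1-2 (0.94) or F1-1 (0.93). INO1 was 1.81 times higher in its highest than in its lowest F1 library, the second largest spread among the 32 genes in F1.

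dhn1 (GRMZM2G079440), a dehydrin that protects cells during drying and answers to abscisic acid, had 704, 682 and 388 FPKM in F1, against 0.120, 0.130 and 0.190 FPKM in CF1. F1-3 was again low, and the CF1 values rest on 3, 3 and 4 counts. From the summed counts of 44152 in F1 and 10 in CF1, the ratio after TMM scaling was 2316 (95% exact interval 1259 to 4830, counting error only). dhn2 rose by 3.59 ± 0.27 on the log2 scale (SE, edgeR, adjusted p = 1.61e-06), with 81.5, 93.6 and 72.9 FPKM in F1, against 3.10, 2.57 and 6.21 FPKM in CF1. mlg3 and Lea14A of the same list had 0 counts in every CF1 library and means of 3.48 and 1.27 FPKM in F1. Besides the member dhn1, these 3 expressed genes of the list were called higher in F1, as were 24.1% of all expressed genes.

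TIP2-1 (GRMZM2G027098), a water channel of the vacuole membrane, had 403, 335 and 375 FPKM in F1, against 14.3, 12.3 and 24.5 FPKM in CF1. CF1-3 stood above the other control libraries, and the fitted log2 fold change was 3.64. Of 10 TIP genes 3 were expressed: TIP4-2 rose by 3.26 and TIP4-1 fell by 2.40 on the log2 scale (edgeR, adjusted p = 2.14e-06 and 4.16e-07). Their levels were 21.1 FPKM in F1 and 1.27 FPKM in CF1 for TIP4-2 and 5.67 FPKM in F1 and 17.2 FPKM in CF1 for TIP4-1.

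fdx3 (GRMZM2G053458), a ferredoxin that carries single electrons in plastids, had 399, 397 and 407 FPKM in F1, against 24.9, 20.7 and 27.9 FPKM in CF1. Its coefficient of variation in F1, 1.36%, was the smallest of the 32. The leaf ferredoxins FDX1, with 411 FPKM in F1 and 1022 FPKM in CF1, and fdx2, with 913 FPKM in F1 and 1317 FPKM in CF1, both fell by edgeR's quasi-likelihood test (log2 fold changes -2.11 and -1.33, adjusted p = 6.55e-07 and 4.05e-05). fdx5 fell as well (-2.91, edgeR adjusted p = 1.05e-07), and FDX6 was not called. The call of fdx2 was lost with library totals (log2 fold change -0.53). On the FPKM scale fdx3 was thus about level with FDX1 in F1 and under fdx2, whereas in CF1 it was far under both.

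plt2 (GRMZM2G010868), a lipid transfer protein, had 316, 349.9 and 399 FPKM in F1, against 25.4, 27.0 and 30.7 FPKM in CF1. It had the narrowest distance between the groups of all members and a fitted log2 fold change of 2.88. plt1, at 247, 324 and 299 FPKM in F1, against 61.5, 75.5 and 64.2 FPKM in CF1, started from a higher control level and rose by 1.31 ± 0.13 on the log2 scale (SE, edgeR, adjusted p = 1.24e-05). LTP3 was low in both groups (means of 2.07 FPKM in F1 and 0.263 FPKM in CF1), and its log2 fold change was 2.23. Its call was lost without CF1-1, CF1-2 or F1-3 (1.76, 1.64 and 1.80), and without CF1-3 the value was 4.73.

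kin1 (GRMZM2G158394) ranked 3 among all genes by mean FPKM in F1, below hsp26, with 4320.0, 3574 and 4793 FPKM in F1, against 18.1, 12.9 and 43.1 FPKM in CF1. It was uneven in CF1, where CF1-3 was 3.35 times CF1-2. That control library alone was above 30 FPKM. The fitted log2 fold change was 6.61, and 7.32 without CF1-3, and in F1 the gene held 0.639% of the counts.

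A further 17 members have no gene name in the sources used, and they include some of the most abundant. GRMZM2G366532 had 2433, 2367 and 2366 FPKM in F1, against 1.11, 0.660 and 1.21 FPKM in CF1. Its F1 values were nearly equal, and it held 0.707% of the F1 counts, the highest share of any member. GRMZM2G154685 had 1991, 2357 and 2393 FPKM in F1, against 0.320, 0.310 and 0.220 FPKM in CF1. It had the largest fitted log2 fold change of the 32, 12.14, and its summed counts of 216622 in F1 and 25 in CF1 gave a TMM-scaled ratio of 4545 (95% exact interval 3079 to 7023, counting error only). GRMZM2G437100, next to hsp 17.2 in the RefSeq order, had 1896, 1718 and 1791 FPKM in F1, against 1.31, 0.940 and 1.44 FPKM in CF1. The neighbours differed 14.1-fold in CF1 but only 1.57-fold in F1 on the FPKM scale.

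GRMZM2G042789 had 1613, 1225 and 1448 FPKM in F1, against 14.4, 8.55 and 23.9 FPKM in CF1. CF1-3 was the highest and CF1-2 the lowest control library, and the lowest F1 value was 51.1 times the highest CF1 value. GRMZM2G080724 had 1225, 1203 and 1525 FPKM in F1, against 3.39, 3.13 and 6.52 FPKM in CF1. Replicate 3 was highest in both groups. GRMZM2G375517 had 627, 481 and 608 FPKM in F1, against 0.390, 0.0800 and 0 FPKM in CF1. Its CF1 values rest on 5, 1 and 0 counts, so the ratio after TMM scaling of 1965 had a 95% exact interval of 903 to 5355 (counting error only). Its fitted log2 fold change was 10.89, and 12.67 without CF1-1. GRMZM2G128617, with 355, 306 and 288 FPKM in F1, against 0.0700, 0.290 and 0.230 FPKM in CF1, was the least abundant in F1 of the members under 1 FPKM in CF1. Its 8 CF1 counts gave a ratio of 953 (484 to 2208).

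AC208204.3_FG006 had 817, 659 and 901 FPKM in F1, against 22.8, 23.0 and 23.2 FPKM in CF1. The control values were almost equal. GRMZM2G020940 had 419, 519 and 355 FPKM in F1, against 3.99, 3.32 and 4.37 FPKM in CF1, without overlap. GRMZM2G059836 had 496, 486 and 397 FPKM in F1, against 24.4, 30.7 and 25.0 FPKM in CF1. Of these 3 genes GRMZM2G020940 had the largest fitted log2 fold change, 5.99, against 4.31 and 3.31 for the other two. GRMZM2G111475 had 325, 327 and 348 FPKM in F1, against 15.8, 14.0 and 17.6 FPKM in CF1, a log2 fold change of 3.60.

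Besides plt2, the genes with the smallest fold changes were GRMZM2G171426, GRMZM2G134668, GRMZM6G901724 and GRMZM2G100344, with CF1 means of 23.8 to 29.9 FPKM. Not every gene near the control threshold was among them, since rca3 averaged 27.2 FPKM in CF1 with a log2 fold change of 4.43. GRMZM2G171426 had 337, 359 and 328 FPKM in F1, against 27.8, 30.4 and 27.4 FPKM in CF1, the smallest log2 fold change of the 32 (2.78). GRMZM2G134668 had 329.9, 343 and 373 FPKM in F1, against 24.2, 24.0 and 23.7 FPKM in CF1. GRMZM6G901724 had 351, 383 and 299.6 FPKM in F1, against 21.7, 27.3 and 22.4 FPKM in CF1. None of these overlapped between the groups, and GRMZM2G134668 was almost equal in the 3 control libraries. GRMZM2G100344 had 465, 423 and 449 FPKM in F1, against 25.6, 26.1 and 38.0 FPKM in CF1, with a mean of 29.9 FPKM in CF1 the nearest to the control threshold. Its CF1-3 value was above the threshold, and the other control values were under it.

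Just inside the heat threshold were GRMZM2G451314 and GRMZM2G049349, besides GRMZM2G128617. GRMZM2G451314 had 319, 370.3 and 239 FPKM in F1, against 13.2, 18.4 and 9.74 FPKM in CF1. It had its lowest value in F1-3 and in CF1-3. GRMZM2G049349 had 341, 336 and 259.9 FPKM in F1, against 13.0, 15.1 and 18.3 FPKM in CF1, with F1-3 under the threshold on its own. Just outside it, GRMZM2G046382 averaged 294 FPKM in F1 and 6.96 FPKM in CF1, GRMZM2G003897 289 FPKM in F1 and 25.7 FPKM in CF1 and GRMZM5G894420 284 FPKM in F1 and 5.23 FPKM in CF1. Just outside the control threshold, GRMZM2G127665 averaged 307 FPKM in F1 and 30.3 FPKM in CF1, GRMZM2G063676 339 FPKM in F1 and 30.7 FPKM in CF1 and GRMZM2G031496 412 FPKM in F1 and 32.9 FPKM in CF1. GRMZM2G331701 met both FPKM thresholds but had at most 3 counts in each CF1 library, with 1179, 1767 and 1231 FPKM in F1, against 0, 0.0800 and 0.250 FPKM in CF1.

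The 32 genes had a median coefficient of variation of 12.4% in F1, against 11.3% over all expressed genes, and of 19.0% in CF1, against 15.5%. The expressed genes were not matched to the members in level. Counting error alone gave the members a coefficient of at most 1.54% in F1, but up to 70.7% in CF1. In F1 3 members exceeded 20%, INO1, dhn1 and GRMZM2G451314, and all had their lowest value in F1-3. In CF1 15 members did so, and 21 of the 32 were highest in CF1-3, whereas 31.4% of all expressed genes were highest there. In that library the members stood at a median of 1.13 times their control mean, against 0.974 for all expressed genes. CF1-3 was also the smallest library, with 12266758 counts on genes. Without CF1-3 the selection gave 32 genes, of which 31 were the same.

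**Figure D4:**
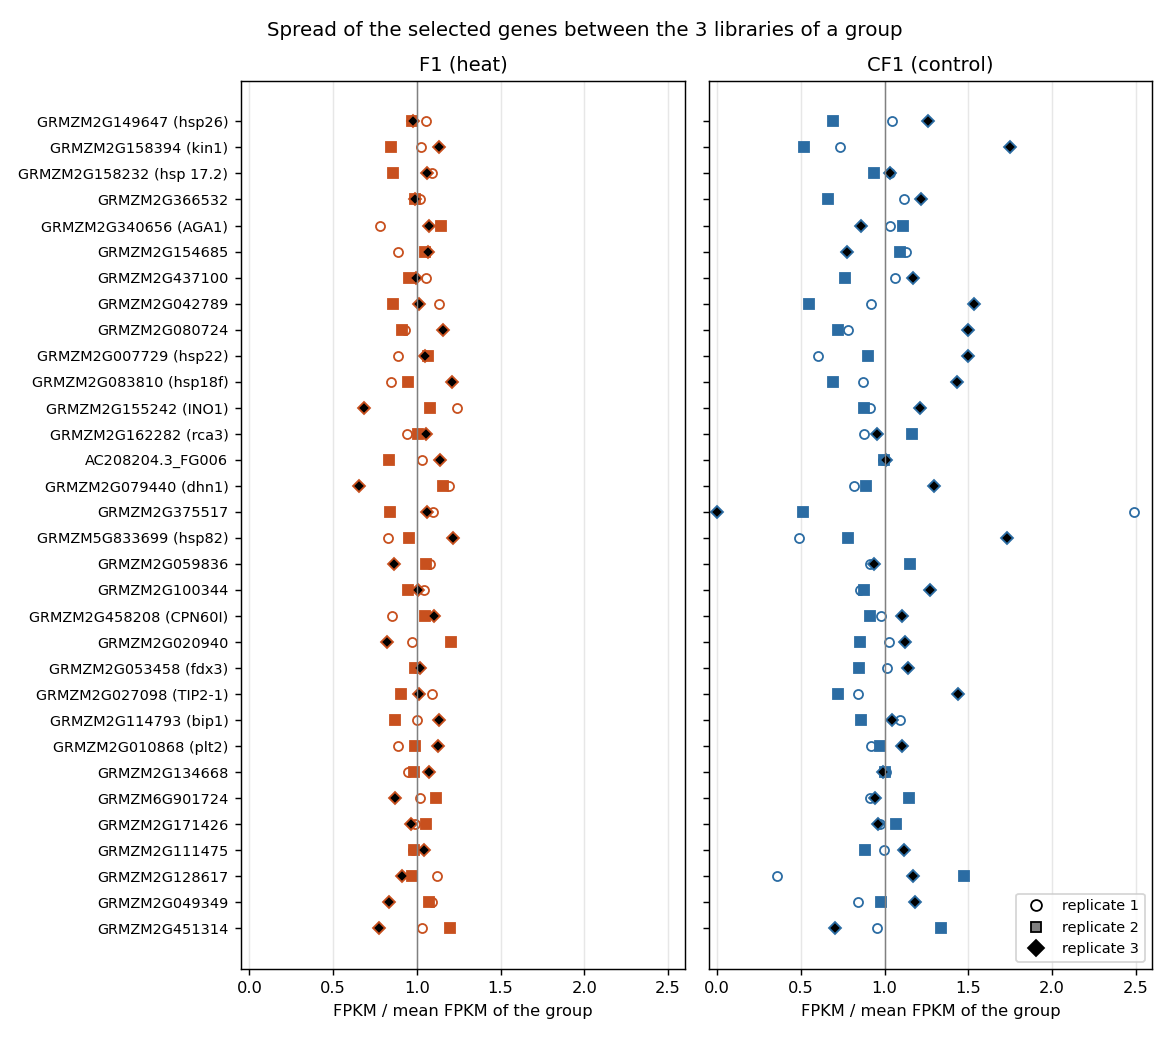
FPKM of each of the 32 genes in each library divided by the mean of its group, for F1 (left) and CF1 (right), with 1 symbol per replicate. In CF1 the diamonds of replicate 3 lie right of 1 for 23 genes, and in F1 those of INO1 and dhn1 lie farthest left.

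The members had a median exonic length of 1530.0 bases (477 to 3041), against 1846.5 bases over all expressed genes. RefSeq has an entry for 26 of them and a gene name for 15. Of the genes next to a member in the RefSeq order and not members themselves, 23 were expressed, of which 6 rose (26.1%) and 7 fell, with a median log2 fold change of -0.18 (all expressed genes 24.1%, 19.9% and 0.05). Among the 26 members with an entry, hsp 17.2 and GRMZM2G437100 were the only ones found next to each other. Not every neighbour had an ID that could be matched, and members without an entry could not be placed. The study's table of splicing events lists 19 genes, of which 6 were members: hsp26, INO1, bip1, CPN60I, GRMZM2G366532 and GRMZM2G111475. The study took these 19 from genes annotated as response to heat that changed under heat in the hybrid and both parents. Heat response thus entered both choices, and nothing is read from the overlap. Events were not analysed here.

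The further stress groups that were looked up by gene symbol, given below, had no member. A member without a gene symbol could not be found this way. Of 44 antioxidant enzyme genes 34 were expressed, 7 rose and 10 fell (edgeR's quasi-likelihood test), beside 24.1% and 19.9% of all expressed genes, with a median log2 fold change of -0.25. Of 5 DREB and MBF1 transcription factors 0 were called by edgeR and 0 by DESeq2, with 2 at an unadjusted p under 0.05. Of 3 ubiquitin genes 1 fell. The expressed metallothionein gene was not called by edgeR or DESeq2, and its unadjusted p was not under 0.05.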

How the data were processed

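Leaf RNA of the hybrid was sequenced as poly(A) libraries, 3 per group. The authors filtered the reads, aligned them to the B73 genome (RefGen_v3) with HISAT (2.0.1 per the processing notes) and counted them per gene with HTSeq (0.6.1). They deposited unnormalized counts, exonic lengths and FPKM, which are the counts over length and library total. Counts over length, times a constant per library taken from the deposited FPKM, matched 100% of the values to within the last decimal. The match therefore did not check the library total itself. Counting of strand and of reads that match several genes is not given in the sources used here. A further 24 per-sample columns carry names that match no label and were not used.

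Library totals were 12266758 to 14643512 counts, with 24325 to 26718 genes detected. TMM factors were 1.30 to 1.33 in F1 and 0.734 to 0.770 in CF1. Counts were fitted with edgeR 4.0.16 (R 4.3.3, glmQLFit and glmQLFTest, TMM) over the 20622 genes with a mean of at least 1 FPKM in F1 or CF1. A call needed a 2-fold change and a Benjamini-Hochberg FDR of at most 0.05, as in the study, and 9065 (44%) were called. The fit was tested on simulated data built from CF1 levels in both groups, which does not bear on the choice of scaling. The exact intervals (95%) are conditional on the summed counts and cover counting error only. DESeq2 1.42.0, other scalings, no filter, other thresholds and units of the selection, a replicate block and each library left out were alternatives. Requiring more than 3 counts in every CF1 library and comparing groups on TMM-scaled FPKM were added after seeing the data.

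The members and the gene lists were chosen with earlier results of these data known. All members may be named, with values per library for those highest in F1, with the largest and smallest fold change, nearest the thresholds, in the heat shock lists, the primer table or the splicing table, and the 3 genes nearest outside each threshold. Values of the remaining members are also given. Names, and the order of genes, come from RefSeq (Zm-B73-REFERENCE-NAM-5.0, matched for 18907 IDs), whose coordinates belong to another build and were not used. Lists hold only genes named there, so families are incomplete. Promoter and protein sequences were not analysed here.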

Additional observations from a re-analysis of the deposited data

How the results depend on the processing

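All 32 members were called higher in F1 under library totals, median-of-ratios factors, no filter, DESeq2 and each library left out. Of their single values under library totals or with a library left out, 224 of 224 kept their call. The selection fixed these calls as well, so nothing is read from them. Of the 20622 expressed genes, 9286 were called higher with library totals and 4838 with DESeq2. The count of genes called was 11185 with library totals (9286 higher, 1899 lower), 10361 without a filter, 9059 with median-of-ratios factors and 8990 with DESeq2, against 9065, and 8807 to 9112 with a library left out. With library totals the members' median log2 fold change was 6.26, against 5.46, and 5.27 to 5.70 with a library left out. The 32 members were 58 genes at a heat threshold of 200 FPKM and 17 at 500, 15 at a control threshold of 15 and 51 at 60, and 15 on TMM-scaled FPKM. They were 42 in TPM, of which 19 were shared, 33 by medians, 29 with more than 3 counts in every CF1 library, and 30 to 33 with a library left out. Their share of F1 was 6.85% of summed FPKM, against 5.72% of counts. Of the heat shock genes, 19 were higher in F1 with each library left out, with DESeq2 and with median-of-ratios factors, and 21 with library totals. On TMM-scaled FPKM the groups of all 32 members stayed apart, as they did for 39.1% of the expressed genes.

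Signs turned only among genes that were not called. With library totals the log2 fold change was 0.31 for HSP90-1, 0.0712 for hsp70-4, 0.0321 for Hsf05, 0.68 for Hsf12, 0.49 for HSF29, 0.58 for hsfb and 0.65 for FDX6. With a library left out it was -0.4398 to 0.0286 for hsfb (lowest without CF1-1, positive only without CF1-3), -0.3372 to 0.0009 for FDX6 (positive only without CF1-1) and -0.0475 to 0.1185 for ms32 (negative without CF1-3 or F1-1). The leaf marker me3 was not called with library totals (-0.99), nor the root marker rth3 without CF1-2 (0.90).

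With the replicate number as a block, 8948 genes were called (4903 higher, 4045 lower), all 32 members and 19 heat shock genes among those higher. The selection fixed the calls of the members here too. Same-numbered libraries showed little shared deviation (r = 0.0326, -0.0175 and 0.0167 over genes). The labels do not say whether the numbers pair the samples, and so few libraries cannot decide it. The motif search in promoters was not run because no promoter sequences were at hand.

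With 3 libraries per group, outlying libraries could not be tested. Depth limits the control levels: 6 members averaged under 1 FPKM in CF1, and dhn1, GRMZM2G375517 and GRMZM2G128617 had 10 or fewer control counts in all. Sharing of reads between the models of CPN60I, the bip pair and the rca pair was not examined.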
